A study of Mus musculus with 10 samples.

Results

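The transcripts described here come from 35 genes of skeletal muscle, taken by their symbols from the 54986 identifiers of a deposited table of 10 mouse tumours. All 35 symbols were in the table, and where a symbol had several lines the line with the highest mean over the 10 tumours was used. The members were grouped by textbook fibre type into 14 fast-fibre genes, 6 slow-fibre genes and 15 genes used by both fibre types. The tumours were grown for 4 weeks from Hepa1-6 cells, a mouse hepatoma line, injected under the skin of C57/BL6 mice, and polyA RNA of the whole tumour was sequenced. The 5 vehicle tumours are those titled C1, C2, C3, C5 and C6, an assignment that rests on the series' design text and on elimination, and the 5 GSK343 tumours are G1 to G5, from mice given an inhibitor of EZH2, the histone H3 lysine methyltransferase of Polycomb repressive complex PRC2. No label names a transgene or an altered allele. Anti-asialo-GM1, an antibody to a glycolipid on natural killer cells, and a control antibody are also mentioned in the labels used here, but not by tumour, and neither age nor sex is given there. The tumours were described as biological replicates, and they are numbered below by their titles.

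Skeletal muscle shortens when thin filaments of actin slide past thick filaments of myosin inside the sarcomere. The calcium that starts this is released from the sarcoplasmic reticulum by the ryanodine receptor and is sensed by troponin on the thin filament, and SERCA pumps return it to the store. Fast and slow fibres build the same machine from different isoforms of myosin, troponin and the calcium pump, and most limb and trunk muscles of the mouse are rich in fast fibres. A hepatoma cell has no sarcomeres, whereas a sheet of striated muscle lies under the skin of a mouse and the body wall muscles lie deeper, so a tumour under the skin grows beside muscle. No label says whether muscle was taken with a tumour, and the source of the transcripts was not tested. In bulk RNA, fewer cells of a type and less RNA per cell cannot be told apart.

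The values are FPKM, fragment counts scaled by transcript length and library size, so levels of different genes can be compared per length. The low values of single-exon genes fell on steps that would correspond to 38.6 to 51.3 M reads (M, mega) per tumour if 1 step is 1 read, and to 47.2 M in vehicle tumour 2. Tumours stood apart in these genes at both ends. Vehicle tumour 2 had the lowest value of 24 of the 35 genes and listed 12 of them at 0, 9 of which were at 0 in no other tumour. A listed 0 can be a failed estimate, so no fold is given against it. GSK343 tumour 3 had the highest value of 26 genes, and its mitochondrial transcripts made up 7.17% of the FPKM sum, as against 7.11% in GSK343 tumour 5 and 2.63% to 5.05% in the other 8. The part of that share in the muscle values was not tested. Together the 35 genes made up 0.0472% of the FPKM sum in vehicle tumour 2, 0.0527% to 0.0855% in 8 tumours and 0.152% in GSK343 tumour 3. Tpm1 and Eno3, at 169 and 77.3 FPKM, made up most of the 287 FPKM of the 35 genes in vehicle tumour 2. The fast-fibre genes alone made up 0.000588% in vehicle tumour 2, 0.00531% to 0.0285% in those 8 tumours and 0.0685% in GSK343 tumour 3. Results that rest on these tumours are given with and without them.

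**Figure D1:**
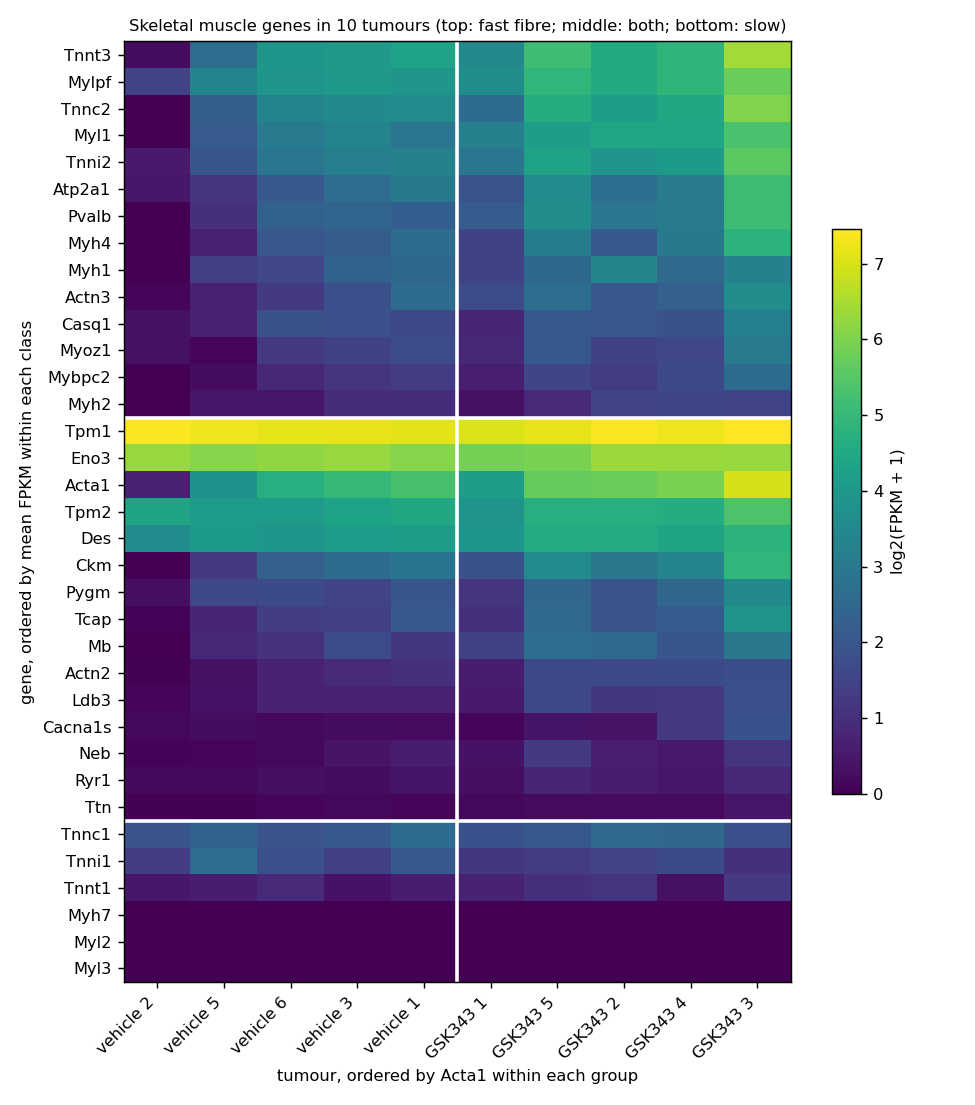
Level of each of the 35 genes (rows, in 3 blocks: fast-fibre, both, slow-fibre) in each of the 10 tumours (columns, vehicle left and GSK343 right, each ordered by Acta1), colour giving log2(FPKM + 1). The fast-fibre block brightens from vehicle tumour 2 to GSK343 tumour 3 in step with Acta1, while Tpm1 and Eno3 are bright in all 10 tumours and Myh7, Myl2 and Myl3 are at or near 0 in all 10.

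Thin filament genes differed widely between tumours. Acta1 (ENSMUSG00000031972.5, mm10 chromosome 8, 123891769 to 123894751) encodes the skeletal muscle actin and is the reference for the other members below. Acta1 stood at 37.7, 0.617, 30.3, 13.2 and 24.2 FPKM in the vehicle tumours and 17, 53.9, 124, 60.9 and 50.4 FPKM in the GSK343 tumours. Throughout, values are listed for vehicle tumours 1, 2, 3, 5 and 6 and then for GSK343 tumours 1 to 5. Vehicle tumour 2 was almost without Acta1, GSK343 tumour 3 was far above the rest, and GSK343 tumours 2 to 5 lay above every vehicle tumour while GSK343 tumour 1 lay among them. The fast troponin C gene Tnnc2 (ENSMUSG00000017300.9, mm10 chromosome 2, 164777161 to 164779967), the calcium sensor of fast fibres, had 11, 0, 10.6, 3.77 and 9.22 FPKM in the vehicle tumours and 5.06, 17.2, 64.9, 21.3 and 23.3 FPKM in the GSK343 tumours. Its order of tumours was close to that of Acta1, with the same single GSK343 tumour inside the vehicle range. The slow troponin C gene Tnnc1 (ENSMUSG00000091898.8, mm10 chromosome 14, 31208312 to 31211729), also the isoform of the heart, had 5.05, 2.93, 3.16, 3.93 and 2.91 FPKM in the vehicle tumours and 2.7, 4.94, 2.56, 4.49 and 3.16 FPKM in the GSK343 tumours. Tnnc1 did not have that order: it was highest in vehicle tumour 1, lowest in GSK343 tumour 3, and at 2.93 FPKM in the tumour that listed Tnnc2 at 0. The fast inhibitory and tropomyosin-binding subunits Tnni2 and Tnnt3 ranged over 0.467 to 46.5 FPKM and 0.194 to 85.1 FPKM, both lowest in vehicle tumour 2 and highest in GSK343 tumour 3. Their slow counterparts stayed low in every tumour, Tnni1 at 1.07 to 5.4 FPKM with its highest value in vehicle tumour 5, and Tnnt1 at 0.263 to 1.34 FPKM. Nebulin, the long ruler protein of the thin filament encoded by Neb, ranged over 0.0419 to 1.39 FPKM. The tropomyosin gene Tpm1, whose protein covers the myosin-binding sites on actin and which many cell types without sarcomeres also use, had 142, 169, 146, 156 and 145 FPKM in the vehicle tumours and 129.97, 165, 174, 152 and 145 FPKM in the GSK343 tumours. Tpm1 was the most abundant member, differed by a factor of only 1.34 between its extreme tumours, and was high in vehicle tumour 2. Tpm2 was intermediate, at 13.6 to 40.1 FPKM, lowest in GSK343 tumour 1 and highest in GSK343 tumour 3.

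**Figure D2:**
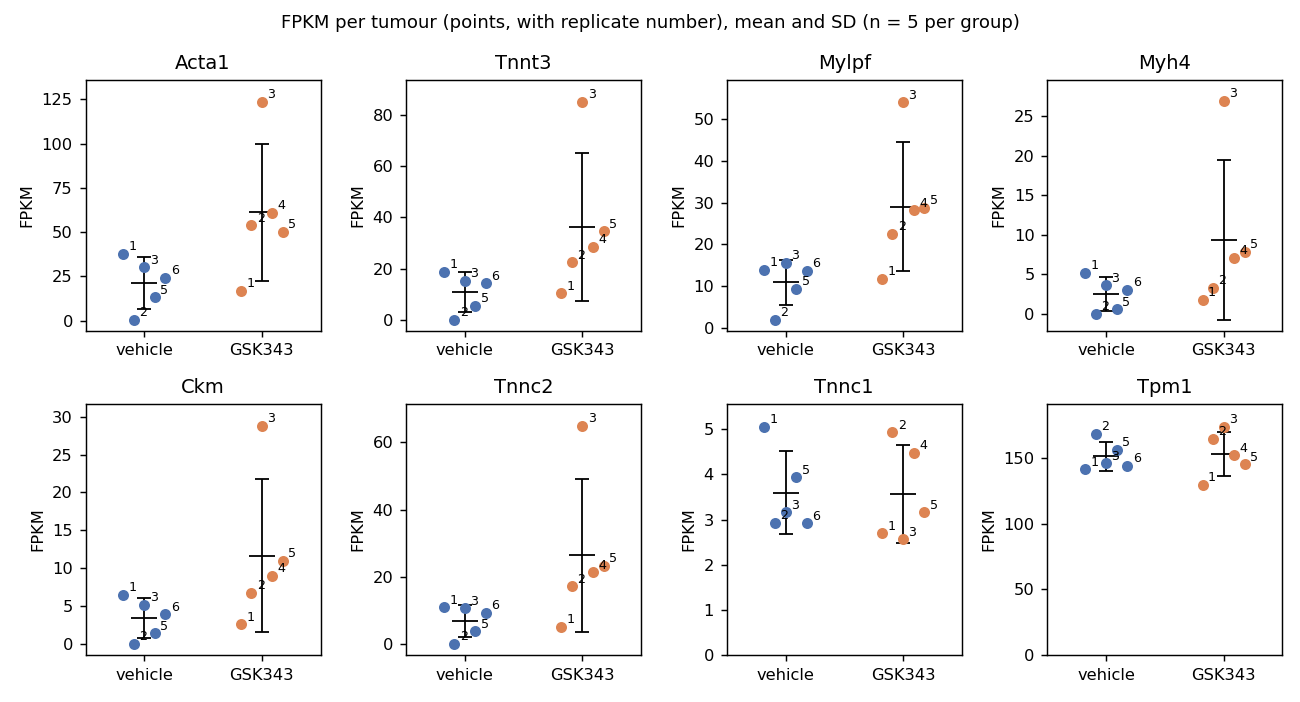
FPKM (vertical axes, starting at or below 0) of 8 members in each tumour, with points numbered by tumour, the mean as a horizontal mark and the SD as bars (n = 5 per group, listed zeros included as 0). In Acta1, Tnnt3, Mylpf, Ckm and Tnnc2 GSK343 tumour 3 is the highest point, GSK343 tumour 1 lies within the vehicle range and vehicle tumour 2 is the lowest, an arrangement not seen in Tnnc1 and Tpm1.

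The stretches of genome before these genes are shown to set the skeletal actin and the type 2B myosin heavy chain beside both troponin C genes, since the fast and the slow troponin C differed in their pattern over the tumours. Each run is the 250 bases before the RefSeq start of the gene (GRCm38.p6, read 5′ to 3′ on the gene's strand), in lower case with capitals for matches to the E-box CANNTG of myogenic basic helix-loop-helix factors, to TATAAA, to the MEF2 site and to the CArG box of serum response factor, searched on both strands.
Acta1 (chr8:123894776-123895025, minus strand): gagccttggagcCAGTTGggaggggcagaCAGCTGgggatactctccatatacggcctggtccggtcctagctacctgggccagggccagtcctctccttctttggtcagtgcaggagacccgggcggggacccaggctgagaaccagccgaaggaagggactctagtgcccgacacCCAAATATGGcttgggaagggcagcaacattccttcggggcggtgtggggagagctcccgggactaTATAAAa
Myh4 (chr11:67237562-67237811, plus strand): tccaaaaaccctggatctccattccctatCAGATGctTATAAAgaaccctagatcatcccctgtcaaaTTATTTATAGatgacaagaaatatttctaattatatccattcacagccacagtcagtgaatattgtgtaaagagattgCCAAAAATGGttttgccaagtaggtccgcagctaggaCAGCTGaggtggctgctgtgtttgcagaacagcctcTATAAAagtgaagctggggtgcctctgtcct
Tnnc2 (chr2:164779735-164779984, minus strand): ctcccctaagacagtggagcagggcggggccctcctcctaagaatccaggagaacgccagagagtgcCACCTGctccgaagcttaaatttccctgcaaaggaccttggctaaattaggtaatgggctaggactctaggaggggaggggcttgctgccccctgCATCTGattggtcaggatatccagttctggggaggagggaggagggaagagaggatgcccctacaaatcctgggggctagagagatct
Tnnc1 (chr14:31208062-31208311, plus strand): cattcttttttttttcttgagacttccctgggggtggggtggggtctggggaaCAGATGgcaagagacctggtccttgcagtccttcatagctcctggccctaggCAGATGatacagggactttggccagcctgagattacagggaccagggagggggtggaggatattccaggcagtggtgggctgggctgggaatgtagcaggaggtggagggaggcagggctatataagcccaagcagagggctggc
The Acta1 window held a CArG box beginning 73 bases before the start, a TATAAA match and a pair of E-boxes. The Myh4 window held a MEF2 site, which contains a TATAAA match on the other strand, as well as a CArG box. Both troponin C windows held only E-boxes among the motifs searched. In RefSeq, 29 of the 35 members had a window, the other 6 being Actn3, Myoz1, Neb, Tcap, Tnni2 and Tnnt3. An E-box was present for 25 of the 29 members and in 66.2% of all 32851 windows. TATAAA was present for 6 members and in 12.4% of all windows, the MEF2 site for 4 members (Myh1, Myh4, Pvalb and Ttn) and in 2.92%, and the CArG box for 4 members (Acta1, Ldb3, Myh4 and Myl3) and in 1.47%. A member with several starts counted once if any of its windows held the motif. These are matches of letters and describe no binding.

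The thick filament was that of fast fibres. The adult fast myosin heavy chains Myh2 (type 2A), Myh1 (type 2X) and Myh4 (type 2B) lie next to each other on mm10 chromosome 11, from 67171027 to 67260446. The 3 sequences are closely similar, so how reads were divided among them is uncertain. Myh4 had 5.21, 0, 3.63, 0.618 and 3.03 FPKM in the vehicle tumours and 1.79, 3.3, 26.9, 7.13 and 7.9 FPKM in the GSK343 tumours. Myh1 had 4.62, 0, 3.98, 1.67 and 1.98 FPKM in the vehicle tumours and 1.75, 9.51, 8.41, 5.01 and 4.66 FPKM in the GSK343 tumours. Myh2 was lower, with 0.958, 0, 0.913, 0.355 and 0.376 FPKM in the vehicle tumours and 0.26, 1.91, 1.85, 1.92 and 0.867 FPKM in the GSK343 tumours. All 3 were listed at 0 in vehicle tumour 2, and the tumour with the highest value differed: GSK343 tumour 3 for Myh4, GSK343 tumour 2 for Myh1 and GSK343 tumour 4 for Myh2. The slow and cardiac heavy chain Myh7 was listed at 0 in 8 tumours and at 0.00263 and 0.0173 FPKM in GSK343 tumours 1 and 2. Light chains showed the same division. Mylpf, the fast regulatory light chain (ENSMUSG00000030672.12, mm10 chromosome 7, 127208890 to 127214298), had 13.8, 1.9, 15.5, 9.32 and 13.6 FPKM in the vehicle tumours and 11.7, 22.5, 54, 28.1 and 28.8 FPKM in the GSK343 tumours. Myl1, the fast essential light chain (ENSMUSG00000061816.15, mm10 chromosome 1, 66924295 to 66945404), had 6.59, 0, 9.16, 3.37 and 7.16 FPKM in the vehicle tumours and 8.48, 20.02, 38.6, 20.5 and 16.6 FPKM in the GSK343 tumours. For Mylpf and Myl1, GSK343 tumours 2 to 5 lay above all vehicle tumours, and GSK343 tumour 1 did not. Myl2 and Myl3, the regulatory and essential light chains of slow fibres and of the heart ventricle, were listed at 0 in all 10 tumours. Mybpc2, the fast myosin-binding protein C, ranged over 0 to 5.22 FPKM.

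Calcium handling genes were present at a wide range of levels. Atp2a1, the SERCA pump of fast fibres, had 7.11, 0.395, 5.35, 1.22 and 3.2 FPKM in the vehicle tumours and 2.81, 5.63, 33.4, 7.51 and 11.3 FPKM in the GSK343 tumours. Pvalb, encoding parvalbumin, a cytosolic calcium buffer of fast fibres, had 3.64, 0, 4.41, 1.0 and 3.98 FPKM in the vehicle tumours and 3.46, 6.52, 33.9, 7.44 and 11.9 FPKM in the GSK343 tumours. Both were led by GSK343 tumour 3, which had about as much Pvalb as Atp2a1. Ryr1, the calcium release channel, had 0.337, 0.131, 0.179, 0.139 and 0.246 FPKM in the vehicle tumours and 0.202, 0.47, 0.822, 0.368 and 0.743 FPKM in the GSK343 tumours. Cacna1s, the voltage sensor that opens it, ranged over 0.119 to 0.188 FPKM with vehicle and 0.0949 to 2.68 FPKM with GSK343. Casq1, the calcium store protein of fast fibres, ranged over 0.263 to 2.57 FPKM with vehicle and 0.746 to 8.27 FPKM with GSK343. Ryr1 and Cacna1s were below 1 FPKM in every vehicle tumour.

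Genes of energy and oxygen supply divided in 2 ways. Ckm, muscle creatine kinase (ENSMUSG00000030399.2, mm10 chromosome 7, 19404776 to 19422841), had 6.47, 0, 5.16, 1.42 and 3.9 FPKM in the vehicle tumours and 2.61, 6.78, 28.8, 9.02 and 11 FPKM in the GSK343 tumours. Mb, myoglobin (ENSMUSG00000018893.15, mm10 chromosome 15, 77015487 to 77050670), had 1.27, 0, 2.29, 0.766 and 1.1 FPKM in the vehicle tumours and 1.75, 4.79, 6.91, 2.99 and 5.46 FPKM in the GSK343 tumours. In both, GSK343 tumours 2 to 5 lay above the vehicle range and vehicle tumour 2 was listed at 0. Pygm, the muscle glycogen phosphorylase, ranged over 0.246 to 2.95 FPKM with vehicle and 1.18 to 10.8 FPKM with GSK343. Eno3, an enolase of glycolysis, stood at 67.8 to 78.2 FPKM with vehicle and 58.8 to 79.6 FPKM with GSK343 and thus far above Ckm in every tumour. Eno3 shared with Tpm1 a level that hardly differed between vehicle tumour 2, at 77.3 FPKM, and GSK343 tumour 3, at 77.4 FPKM.

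Z-disc and scaffold genes anchor the filaments. Des, the intermediate filament desmin, which smooth muscle and pericytes also make, had 16.8, 11.4, 16.3, 15.5 and 14.2 FPKM in the vehicle tumours and 14, 23.2, 27.1, 19.5 and 23 FPKM in the GSK343 tumours. Des was present in vehicle tumour 2 and varied 2.38-fold between the extreme tumours, less than most members. Actn2, the alpha-actinin of all fibres, had 1.0, 0.021, 0.843, 0.273 and 0.677 FPKM in the vehicle tumours and 0.497, 2.13, 2.47, 2.16 and 2.09 FPKM in the GSK343 tumours. Ldb3, a Z-disc protein that binds alpha-actinin, had 0.621, 0.0907, 0.669, 0.29 and 0.642 FPKM in the vehicle tumours and 0.462, 1.26, 2.5, 1.39 and 2.12 FPKM in the GSK343 tumours. Actn2 was near 0 in vehicle tumour 2 and almost level in GSK343 tumours 2 to 5, and Ldb3 was also above the vehicle range in those 4. Tcap, which caps titin at the Z-disc, had 3.15, 0.0447, 1.68, 0.737 and 1.56 FPKM in the vehicle tumours and 1.06, 2.92, 13.4, 3.46 and 4.98 FPKM in the GSK343 tumours. Ttn, the giant spring protein titin, had 0.0999, 0.0251, 0.129, 0.0314 and 0.0735 FPKM in the vehicle tumours and 0.11, 0.169, 0.381, 0.165 and 0.167 FPKM in the GSK343 tumours. Tcap and Ttn were both lowest in vehicle tumour 2 and highest in GSK343 tumour 3. Actn3, the alpha-actinin of fast fibres, and Myoz1, a fast-fibre calcineurin-binding protein, ranged over 0.0807 to 11.5 FPKM and 0.105 to 7.34 FPKM.

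The summed level of fast-fibre genes differed widely between tumours, and that of slow-fibre genes less widely. The summed FPKM of the 14 fast members was 91.5, 3.57, 85, 31.4 and 69.7 in the vehicle tumours and 56.7, 132, 426, 154 and 172 in the GSK343 tumours. The sum of the 6 slow members was 8.91, 4.9, 5.13, 9.81 and 6.31 in the vehicle tumours and 4.66, 8.07, 4.97, 6.93 and 5.62 in the GSK343 tumours. The fast sum was below the slow sum in vehicle tumour 2 alone, with a ratio of 0.728. The ratio was 3.2 to 16.6 in the other vehicle tumours and 12.2 to 85.7 in the GSK343 tumours. The slow sum came from Tnnc1, Tnni1 and Tnnt1, because Myl2 and Myl3 were at 0 and Myh7 was at 0 or nearly so. Whether a ratio that rests on these few slow genes reflects fibre types was not tested. Within the troponin C pair, the fast gene made up 49% of the summed FPKM in vehicle tumour 5 and 96.2% in GSK343 tumour 3, with the other tumours except vehicle tumour 2 between them. For troponin I the fast share ran from 22.8% in vehicle tumour 2 to 97.8% in GSK343 tumour 3.

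Among the adult heavy chains, the mix of fast types also differed between tumours. Over the 9 tumours with any heavy chain value, Myh4 made up 22.4% to 72.4% of the 4 genes' summed FPKM, Myh1 22.6% to 64.5%, Myh2 4.98% to 13.6% and Myh7 at most 0.118%. Myh1 was the leading type in vehicle tumours 3 and 5 and in GSK343 tumour 2, and Myh4 in the other 6. The share of Myh4 was 23.4% in vehicle tumour 5 and 22.4% in GSK343 tumour 2, tumours whose summed heavy chain level was 2.64 and 14.7 FPKM. The shares of the groups overlapped, with 42.6% ± 14 Myh4 in vehicle (SD, n = 4, without tumour 2) and 50.3% ± 18.4 in GSK343 tumours (SD, n = 5).

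**Figure D3:**
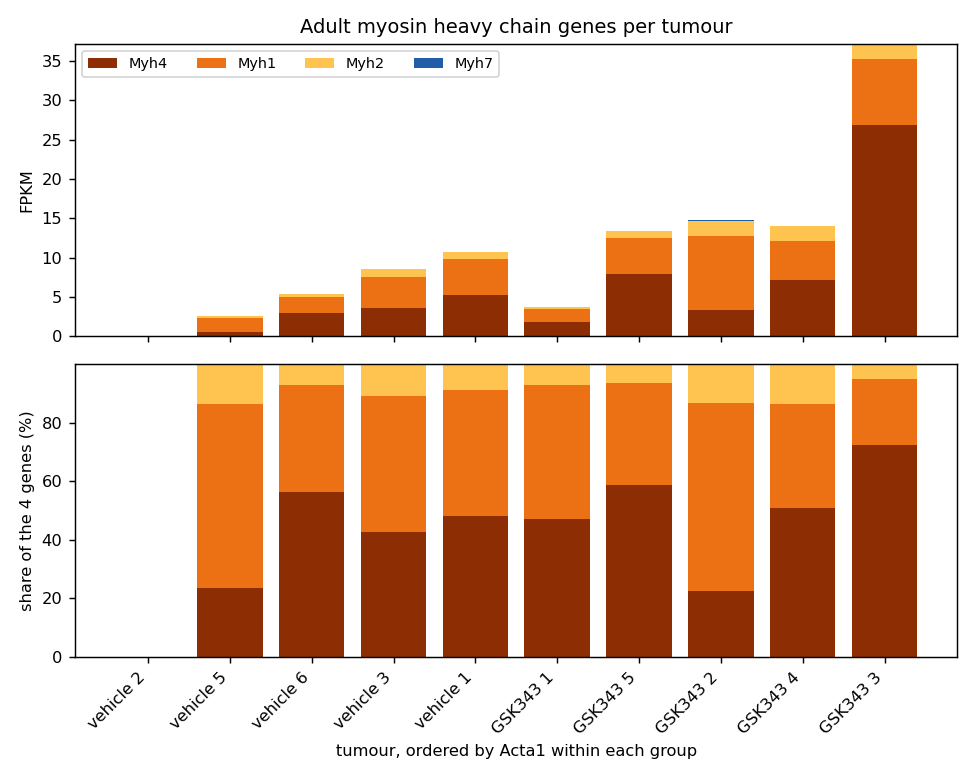
Adult myosin heavy chain genes in each tumour (horizontal axis, vehicle then GSK343, ordered by Acta1): stacked FPKM above and share of the 4 genes' sum in percent below, with colours for Myh4, Myh1, Myh2 and Myh7. Vehicle tumour 2 has no bar because all 4 genes were listed at 0, Myh7 makes up at most 0.118% in any tumour, and GSK343 tumour 3 has the tallest bar and the largest Myh4 share, 72.4%.

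Most members varied together across the 10 tumours, and the slow troponins, Tpm1 and Eno3 did not. Pearson's r and Spearman's rho of log2(FPKM + 1) with Acta1 were computed for 39 genes, the 32 other members with a value and 7 genes of other cell types. The p-values come from two-sided permutation tests with 100000 resamples, adjusted by Benjamini-Hochberg over the 39 pairs. For 21 of the 32 members r was above 0.8. Among the tested lines 0.435% had such an r, 63 of 14495, of which 20 were members (of the 25 tested members besides Acta1), 4 were in a list of other skeletal muscle genes and 39 were in none of the lists used here. Tnnt3 followed Acta1 most closely (r = 0.99, rho = 0.96; permutation p = 1e-05, the smallest the resamples can give, and 9e-05; adjusted p = 7.8e-05 and 0.000557). Tnnc2, Mylpf and Myl1 had r of 0.98, 0.98 and 0.97. All 14 fast members had an r of at least 0.82, with a median of 0.91. The 4 slow members with a value had r from -0.15 for Tnni1 to 0.47 for Tnnt1, and Tnnc1 had r = 0.22, rho = 0.18 (permutation p = 0.591 and 0.633; adjusted p = 0.659 and 0.685). Tpm1 and Eno3 had r of -0.04 and 0.05.

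The relation was also computed without the extreme tumours and within the groups. Without vehicle tumour 2 and GSK343 tumour 3, the tumours farthest from the median of Acta1, 22 members had an r above 0.8, as against 0.49% of all tested lines. With the group means removed the number was 17, as against 0.428%. For Tnnt3 the corresponding values were 0.95 and 0.98. The genes of other cell types gave smaller values, from -0.46 for the hepatoma gene Afp to 0.41 for the smooth muscle actin Acta2, and the leukocyte gene Ptprc had 0.35. None of these 7 passed an adjusted p of 0.05 by Pearson's r, whereas by rank Afp did (rho = -0.73, permutation p = 0.0199, adjusted p = 0.0287).

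**Figure D4:**
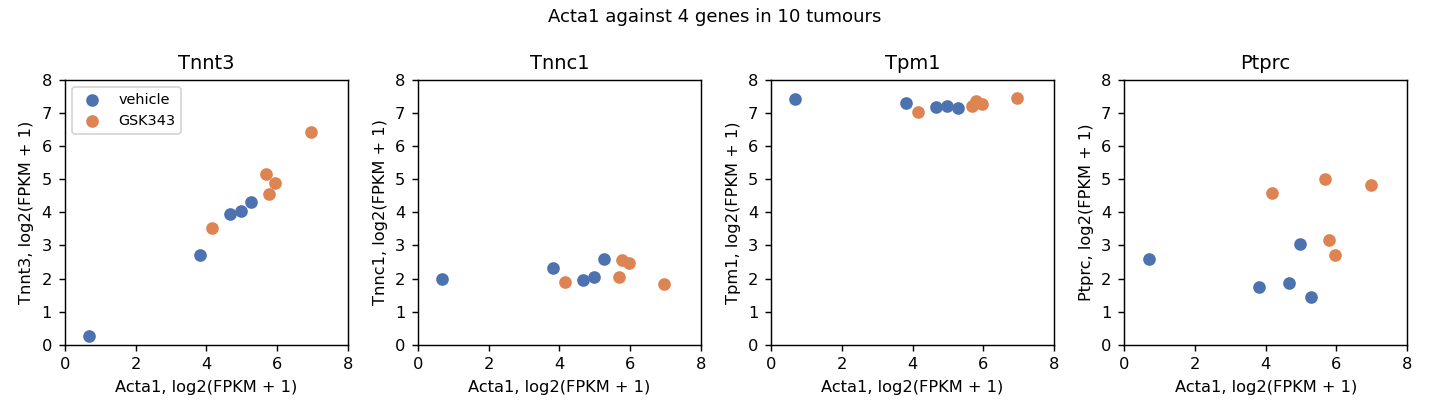
Acta1 (horizontal axes) against Tnnt3, Tnnc1, Tpm1 and the leukocyte gene Ptprc (vertical axes), all as log2(FPKM + 1) on the same scale, with 1 point per tumour (5 vehicle, 5 GSK343). Tnnt3 rises along a line with Acta1 in both groups (r = 0.99), and Tnnc1 and Tpm1 stay level (r = 0.22 and -0.04).

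Proportions to Acta1 were held to different degrees. Over the 9 tumours other than vehicle tumour 2, Acta1 itself spanned 9.39-fold. Tnnt3 stood at 41.6% to 68.8% of the Acta1 FPKM in these tumours, Tnni2 at 22.7% to 38.7%, Tnnc2 at 28.6% to 52.5% and Mylpf at 36.7% to 70.7%. These proportions spanned at most 1.93-fold. Myh4 was less constant, at 4.69% to 21.8%, as was Pvalb, at 7.59% to 27.4%. The slow genes spanned more, with 2.07% to 29.9% for Tnnc1 and 0.863% to 41% for Tnni1. Of these 9 tumours, both proportions were lowest in GSK343 tumour 3, where Acta1 was highest, and highest in vehicle tumour 5, where Acta1 was lowest.

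The comparison of GSK343 with vehicle asks which transcripts differ after EZH2 inhibition. No muscle gene passed the threshold in it. Of the 35 members, 26 reached the mean of 1 FPKM needed for the test and 9 did not (Myh2, Myh7, Myl2, Myl3, Tnnt1, Ttn, Neb, Ryr1 and Cacna1s). Of the 26, Actn2, Ldb3 and Mybpc2 reached it only through their GSK343 values. At a limma adjusted p under 0.05, 0 of the 26 tested members were higher and 0 lower, where 0.069% of the 14496 tested lines were higher and 0.0138% lower. At an unadjusted limma p under 0.05, 16 of the 26 were higher and 0 lower, where 10.7% of all tested lines were higher and 6.86% lower. The 16 include Actn2, Ldb3 and Mybpc2; of the 23 members with a vehicle mean of at least 1 FPKM, 13 were higher, where 9.92% of such lines were. In place of 16, the number was 8 without vehicle tumour 2, vehicle tumour 5, or GSK343 tumour 3, 4 or 5, each left out in turn, and 7 without both vehicle tumour 2 and GSK343 tumour 3. The share of all tested lines is not given for these fits. Whether it changed as well cannot be read from these numbers. Without the filter, when Ttn, Neb, Ryr1 and the other low members with a value enter, 14 of the 33 were higher at an unadjusted limma p under 0.05, where 7.56% of all 33757 lines were. With the filter, the adjusted p of the tested members ran from 0.191 to 0.966.

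Most group means were nevertheless higher in GSK343 tumours. The mean was higher for 30 members and lower for 3 (Tnni1, Tnnc1 and Eno3), and Myl2 and Myl3 had no value. The log2 fold change was above 0 for 30 of the 33 members with a value, where 53.1% of all lines without the filter were above 0. Most members vary together, so these are not 30 separate results. A log2 fold change of FPKM + 1, which understates the change of low genes, was above 1 for 14 members and for 1.7% of all tested lines. Its median was 0.85 over the 33 members with a value, 1.41 over the 14 fast members, -0.01 over the 4 slow members with a value and 0.60 over the 15 members of both fibre types, beside -0.01 over all tested lines. Over the 26 tested members the median was 1.12 with all tumours, 0.79 without vehicle tumour 2, 0.83 without GSK343 tumour 3 and 0.54 without both. The median member in each tumour, on the log2(FPKM + 1) scale, was at 1.77 ± 0.93 in vehicle and 3.18 ± 1.07 in GSK343 tumours (SD, n = 5 each).

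Of the 4 members with the smallest p, myoglobin and a fast light chain had vehicle means of at least 1 FPKM, whereas the Z-disc genes Actn2 and Ldb3 entered the test only through their GSK343 values. Mb had the smallest, with a log2 fold change of 1.38 (SE 0.345; limma adjusted p = 0.191). Myl1 had the largest difference of all members, with a log2 fold change of 2.02 (SE 0.602; limma adjusted p = 0.192). Actn2 followed with a log2 fold change of 0.86 (SE 0.258; limma adjusted p = 0.192), and Ldb3 with a log2 fold change of 0.76 (SE 0.229; limma adjusted p = 0.192). Acta1 was at 21.2 ± 14.6 FPKM with vehicle and 61.2 ± 38.8 FPKM with GSK343 (SD, n = 5 each), with a log2 fold change of 1.83 (SE 0.824; limma adjusted p = 0.285). For Tnnt3 the means were 10.8 ± 7.72 FPKM with vehicle and 36.2 ± 28.7 FPKM with GSK343 (SD, n = 5 each), with a log2 fold change of 1.86 (SE 0.772; limma adjusted p = 0.253). Mylpf was at 10.8 ± 5.5 FPKM with vehicle and 29 ± 15.6 FPKM with GSK343 (SD, n = 5 each), with a log2 fold change of 1.41 (SE 0.504; limma adjusted p = 0.215). In each of these 3 genes the SD of the GSK343 group exceeded the vehicle mean, and GSK343 tumour 3 was above all other tumours. Desmin was tighter, at 14.8 ± 2.16 FPKM with vehicle and 21.3 ± 4.93 FPKM with GSK343 (SD, n = 5 each), with a log2 fold change of 0.48 (SE 0.165; limma adjusted p = 0.21). Tnnc1 was at 3.6 ± 0.913 FPKM with vehicle and 3.57 ± 1.08 FPKM with GSK343 (SD, n = 5 each), with a log2 fold change of -0.02 (SE 0.178; limma adjusted p = 0.966). The sign of this small difference turned when 1 tumour was left out for 5 of the 10 tumours. Tpm1 was at 152 ± 11.2 FPKM with vehicle and 153 ± 17.1 FPKM with GSK343 (SD, n = 5 each), with a log2 fold change of 0.01 (SE 0.0882; limma adjusted p = 0.959), and its sign also turned with single tumours left out. Tnni1 was the lowest of all members, with a log2 fold change of -0.53 (SE 0.24; limma adjusted p = 0.288).

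**Figure D5:**
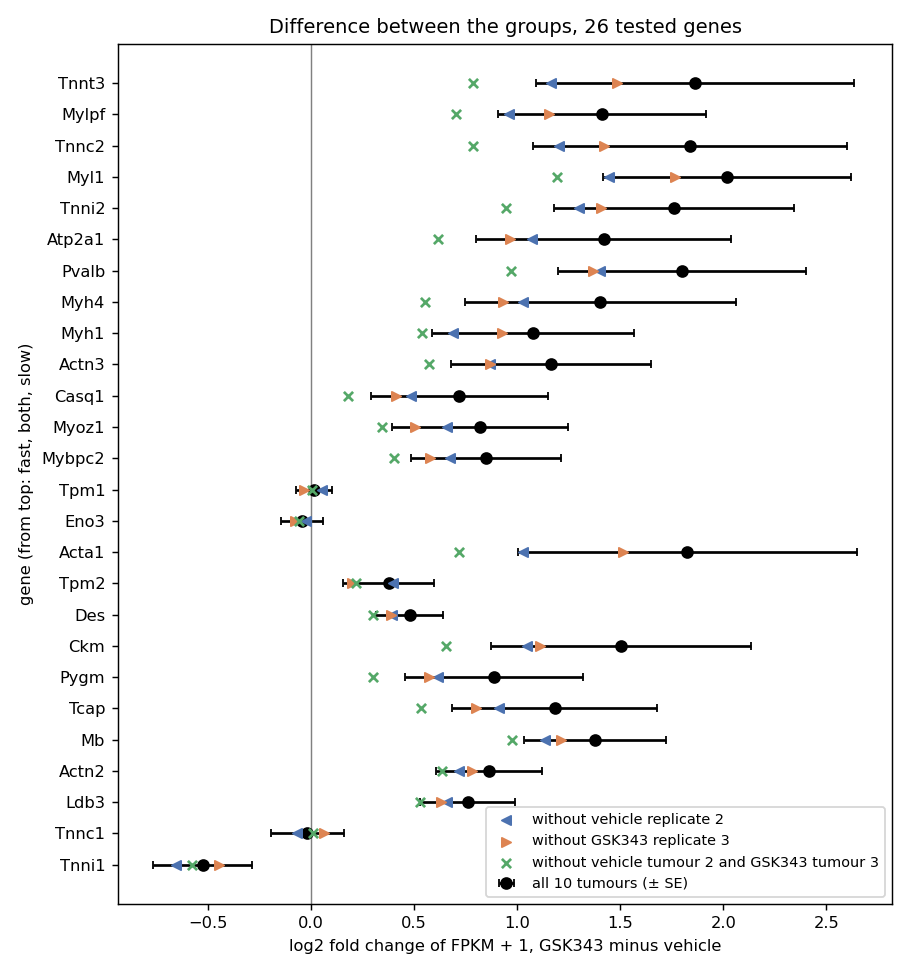
Log2 fold change of FPKM + 1, GSK343 minus vehicle (horizontal axis), of the 26 tested members (vertical axis: fast, both, slow from the top), with SE bars for all 10 tumours in black and the estimate without vehicle tumour 2, without GSK343 tumour 3 and without both in colour. Leaving out either tumour moves all 13 tested fast-fibre genes toward 0, as for Tnnt3 from 1.86 with all tumours to 1.16 without vehicle tumour 2 and 1.48 without GSK343 tumour 3, while Tpm1, Eno3 and Tnnc1 lie near 0 throughout. These tumours were chosen as the extremes of the same genes, so the move toward 0 follows largely from that choice.

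In many members GSK343 tumour 1 was the only GSK343 tumour not above every vehicle tumour. In 0 of the 35 members were all GSK343 tumours above all vehicle tumours, a pattern seen in 1.42% of the tested lines, and in 0 were all below, which 1.2% were. In 18 members exactly 4 of the 5 GSK343 tumours were above every vehicle tumour, where 5.38% of the tested lines had at least 4, and in all 18 the exception was GSK343 tumour 1. The 18 include Ttn, Ryr1 and Cacna1s, which were not tested, and Actn2 and Ldb3, which passed the filter only through their GSK343 values. The 18 and the 5.38% are thus not drawn from like sets. GSK343 tumour 1 lay below the vehicle mean in 23 members. Without GSK343 tumour 1, 18 members no longer overlapped between the groups, without vehicle tumour 3 the number was 3, and with each other tumour left out it was 0. The 18 are the same members as above, so that number was fixed by the choice of tumour. The share of all tested lines is not given for these left-out tumours. In GSK343 tumour 1 the pan-leukocyte genes summed to 941 FPKM and the fibroblast genes to 1849 FPKM.

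Many further skeletal muscle genes outside the 35 had the same tumours at their extremes. A list of 54 other skeletal muscle genes was in the table in full, with 24 of them below 1 FPKM in every tumour and 11 tested. The log2 fold change was above 0 for 53 of the 54, where 53.1% of all lines without the filter were above 0. Of the 11 tested, 0 passed the adjusted limma test and 5 were higher at an unadjusted p under 0.05, where 10.7% of all tested lines were. Of these 11, 5 reached the mean of 1 FPKM only through their GSK343 values, and among the other 6 the number was 2. Over the 54 genes, the highest value was in GSK343 tumour 3 for 39. The lowest was in vehicle tumour 2 for 39, a number that includes zeros shared with other tumours. Cox8b and Sgca, for example, were each listed at 0 in 5 tumours. The most abundant was Atp2a2, the SERCA pump of slow muscle and of many other cells, at 70.4 ± 6.68 FPKM with vehicle and 71.3 ± 9.2 FPKM with GSK343 (SD, n = 5 each). Next came Ankrd23, an ankyrin repeat protein of muscle, at 2.62 ± 0.37 and 3.23 ± 0.701 FPKM, and Pgam2, the muscle phosphoglycerate mutase, at 1.48 ± 0.818 and 4.23 ± 2.92 FPKM.

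Most markers of muscle stem cells and of immature or cardiac muscle were low: below 1 FPKM in every tumour stood 5 of 8 developmental muscle genes and 6 of 8 heart genes. Among 15 measured genes of myogenic regulation and muscle stem cells, 12 were below 1 FPKM in every tumour. Pax7, the satellite cell factor, and the myogenic factors Myf5 and Myod1 were listed at 0 in all 10 tumours, and Myog reached at most 0.159 FPKM. The 3 above 1 FPKM were Mef2a, Mef2c and Mef2d, which many cell types use. The embryonic and perinatal myosins Myh3 and Myh8 reached at most 0.147 and 0.32 FPKM. Tnnt2, the cardiac and embryonic troponin T, was an exception with 21.5 to 50.5 FPKM with vehicle and 14.6 to 49.2 FPKM with GSK343. Igf2bp1 of the developmental list was another, at 7.18 to 9.57 FPKM with vehicle and 5.7 to 8.2 FPKM with GSK343. Myl4 of that list ranged over 0.25 to 1.71 FPKM with vehicle and 0.315 to 2.19 FPKM with GSK343. Of the heart genes, Myl7 was listed at 0 in all 10 tumours, Myh6 was at 0 in 8 and at most 0.00357 FPKM, and Tnni3 was at 0.603 to 4.47 FPKM with vehicle and 2.45 to 4.31 FPKM with GSK343.

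Genes of other cell types of the tumour and its bed were summed in the same way. The summed level of 12 smooth muscle and pericyte genes was 181 to 232 FPKM with vehicle and 239 to 292 FPKM with GSK343, without overlap, and 6 of the 10 tested were higher at an unadjusted limma p under 0.05, where 10.7% of all tested lines were. The sum of 9 pan-leukocyte genes was 354 to 1056 FPKM with vehicle and 749.7 to 1258 FPKM with GSK343, with 8 of 9 higher at an unadjusted p under 0.05, against the same 10.7%. Vehicle tumour 2, lowest in muscle genes, had the highest vehicle leukocyte sum. With the leukocyte mean as a covariate the median log2 fold change of the tested members was 1.40. Most leukocyte genes were themselves higher with GSK343, so this fit cannot separate leukocyte content from treatment. Fibroblast genes (8) summed to 1505 to 1890 FPKM with vehicle and 1437 to 2215 FPKM with GSK343, a sum of which the proteoglycan Dcn was the largest share, at 1169 ± 112 FPKM with vehicle and 1082 ± 108 FPKM with GSK343 (SD, n = 5 each). The means of the other 7 were higher with GSK343, 5 of them at an unadjusted p under 0.05, and the matrix gene Postn, named after its values were seen, did not overlap between the groups, at 44.6 to 75.4 FPKM with vehicle and 84.4 to 268 FPKM with GSK343. Endothelial genes (8) summed to 70.8 to 95.7 FPKM with vehicle and 77.6 to 100.1 FPKM with GSK343, with 1 of 7 tested higher and 1 lower at an unadjusted p under 0.05. Peripheral nerve genes (7) summed to 7.76 to 21.4 FPKM with vehicle and 10.1 to 32.9 FPKM with GSK343, with the largest value in GSK343 tumour 5. Hepatoma and liver genes (10) summed to 5086 to 6574 FPKM with vehicle and 3998 to 5484 FPKM with GSK343, with the lowest value in GSK343 tumour 3.

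Skin and fat, the other tissues beside a tumour under the skin, had their highest sums in vehicle tumours. The sum of 12 keratinocyte genes was 29.8 to 189 FPKM with vehicle and 27.1 to 52.3 FPKM with GSK343, highest in vehicle tumour 3. The lowest sums were mostly Perp, at 24.1 FPKM in vehicle tumour 2 and 21 FPKM in GSK343 tumour 3. The sum of 10 adipocyte genes was 51 to 109.6 FPKM with vehicle and 43.2 to 61.2 FPKM with GSK343, highest in vehicle tumour 6. Fabp4 was the largest part, with 49 of 56.1 FPKM in vehicle tumour 5, where Adipoq was listed at 0. The low sums of these 2 lists thus rest largely on 1 gene each. Krt5 ranged over 0.0868 to 14.9 FPKM with vehicle and 0.228 to 3.88 FPKM with GSK343, and Adipoq was listed at 0 in 2 tumours and reached 3.65 FPKM. Their r with Acta1 was 0.19 and -0.22. The part of any of these tissues in the group difference of the muscle genes was not tested.

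Annotation limits some single values. Of the 35 members, 19 are overlapped by another annotated gene, among them Tnnc2 by Ube2c, Tnnc1 by Nisch, Atp2a1 by Rabep2 and Mb by Apol6, and whether counting used strand is not given in the sources used here. Overlap was taken over whole gene spans, introns included. Without strand, reads in bases that the exons of both genes share cannot be told apart. How much exon sequence is shared was not computed.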

How the data were processed

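PolyA RNA of 10 Hepa1-6 tumours was sequenced, 5 in each group. The submitters' processing notes name mm10 as the genome and StringTie 1.3.3b, HISAT2 2.1.0 and Trimmomatic 0.33 as tools; their options, the strand setting included, are not given here. The values the authors deposited, whose header gives no unit, were read as FPKM, which summed to 574547 to 623397 per tumour. The deposited FPKM come without an estimate of their counting error, so no interval is given. The library sizes in the text are inferred from steps that held 39.1% to 45.9% of the low values of single-exon genes within 5% of a whole step. The table had 55020 lines.

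From these, log2(FPKM + 1) was tested two-sided with limma 3.58.1 (R 4.3.3, intensity trend) on the 14496 lines whose mean reached 1 FPKM, with Benjamini-Hochberg adjustment over all of them and a threshold of 0.05, and checked on simulated data. Levels, shares and promoter motifs were computed with Python 3.11.15, numpy 2.4.6, pandas 2.3.3 and scipy 1.17.1 (plots: matplotlib 3.10.9). GENCODE M21 gave overlaps and 34 of 35 member coordinates unchanged.

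The members and lists were chosen with earlier results of these data known. Values in every tumour are given for 17 members chosen by role and the 4 with the smallest p, other members by range, and list genes by highest mean; defining markers at or near 0 are also named. A planned gene of the marker lists and correlations is not reported here. Alternatives covered the pseudocount, filter, scaling, variance model, weights, a leukocyte covariate, a replicate block and left-out tumours.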

Additional observations from a re-analysis of the deposited data

Results flagged for a closer look

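Each of the 35 genes was looked at within each group of 5 tumours for a highest or lowest value whose gap to the nearest other tumour was over 71% of the whole range. For normally distributed values about 1 in 20 groups would have such a value, a rate that need not hold for FPKM. Groups listed at 0 throughout, as for Myl2 and Myl3, cannot have one. Of the 70 groups, 6 had such a value. GSK343 tumour 3 was far above the other GSK343 tumours in Myh4 (26.9 FPKM, others 1.79 to 7.90), Atp2a1 (33.4 FPKM, others 2.81 to 11.3), Pvalb (33.9 FPKM, others 3.46 to 11.9) and Ttn (0.381 FPKM, others 0.110 to 0.169). These are the fast-fibre heavy chain, calcium pump and calcium buffer, together with titin. GSK343 tumour 1 was far below the other GSK343 tumours in Actn2 (0.497 FPKM, others 2.09 to 2.47). The slow heavy chain Myh7 was at 0.0173 FPKM in GSK343 tumour 2 and between 0 and 0.00263 FPKM in the others, a level at which few reads decide the value. The same tumours recur because the genes vary together, so the 6 are not independent.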

How the results depend on the processing

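The 25 other settings of the gene test left 0 members past the adjusted limma threshold, with 0.0707 as the lowest adjusted p (Myl1, without vehicle tumour 2). The number of members higher at an unadjusted p under 0.05, 16 as reported, was 8 with a pseudocount of 0.01, 10 with a mean of at least 5 FPKM required, 10 with quantile normalization, 2 without GSK343 tumours 3 and 5, and 7 without vehicle tumour 2 and GSK343 tumour 3, an alternative chosen after seeing the data, and it ran from 8 to 22 with each tumour left out. These counts have no share of all tested lines beside them, so a change in them is not shown to be particular to the members. The median log2 fold change of the tested members, 1.12 as reported, was 2.12 with a pseudocount of 0.01 and 0.79 to 1.36 with each tumour left out. The number of members without overlap, 0 as reported, ran from 0 to 18 with each tumour left out. The 18 are the members in which only GSK343 tumour 1 was not above every vehicle tumour, so leaving it out had to give that number. No share of all tested lines is given beside these counts either. Over all settings, 19 member fold changes turned sign and 619 did not. With the leukocyte covariate, Tnni1 was at 0.0457, Tnnc1 at 0.353 and Tpm1 at -0.0606. Without GSK343 tumours 3 and 5, Tnnc1 was at 0.124 and Tpm1 at -0.0283, and without vehicle tumour 2 and GSK343 tumour 3 Tnnc1 was at 0.0106. With each tumour left out, Tnnc1 ran from -0.123 to 0.0844, Tpm1 from -0.0354 to 0.0692 and Eno3 from -0.0896 to 0.0178. The r with Acta1 turned sign without its 2 extreme tumours for Tpm1 (0.36) and Pecam1 (0.29), and with the group means removed for Myh7 (-0.045), Tnni1 (0.26), Acta2 (-0.0607), Adipoq (0.0196), Col1a1 (-0.34) and Ptprc (-0.18). The cause of these changes was not tested.

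Of the 4 tumour numbers that both groups share, 0 had a vehicle and a GSK343 tumour that deviated together by a correlation over 0.1 (-0.11, -0.33, 0.03 and -0.19), and no label says that a number pairs tumours. With the number as a replicate block, 8 members were higher at an unadjusted p under 0.05, 0 passed the adjusted threshold, the median log2 fold change was 1.15 and Tpm1 was at -0.0038. The share of all tested lines is not given for this fit either. Depth limits the members below 1 FPKM, for which few reads stand behind a value.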
